A study of Mus musculus with 8 samples.

Results

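B cell identity is held by a network of transcription factors, and 10 of them are described here in spleens of leukaemic mice with and without lowered Kdm1a: Pax5, Ebf1, Pou2af1, Spib, Bach2, Bcl6, Ikzf1, Ikzf3, Tcf3 and Foxo1. They were chosen by name, as the rows of the expression table whose Ensembl identifiers carry these symbols in the GENCODE M21 annotation, and all 10 were found among 54018 identifiers. All 10 also passed the filter on low values, under which 12890 genes were tested. The table holds FPKM, counts of sequenced fragments scaled to transcript length and library size, for 8 libraries of polyadenylated RNA from splenic mononuclear cells of C57BL/6 mice. All 8 libraries come from mice with the Eµ-TCL1A transgene, in which the immunoglobulin heavy chain enhancer Eµ drives the human TCL1A oncogene in B cells and a disease like chronic lymphocytic leukaemia follows. In 4 of them (genotype Kdm1aKD;Eµ-TCL1A, called knockdown; replicates 1, 2, 5 and 4) a doxycycline-inducible construct lowers Kdm1a, a demethylase of histone H3 lysine 4, and 4 carry Eµ-TCL1A alone (called control; replicates 1 to 4). The mice were leukaemic when doxycycline was given. The sources used here do not give ages, the cell types in which the inducible construct acts, or whether controls received doxycycline. No label ties a library to a single animal, so p-values here reflect only how these 8 libraries spread, which may be technical.

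As background, Tcf3 (the E protein E2A), Ebf1 and Foxo1 act early to open the B lineage programme, and Pax5 then activates B cell genes and represses those of other lineages. Ikzf1 (Ikaros) and Ikzf3 (Aiolos) are zinc finger factors of lymphoid cells, Pou2af1 (OCA-B) is the coactivator of octamer-binding factors, and Spib is an Ets factor of B cells related to PU.1. Bcl6 and Bach2 hold back plasma cell differentiation, in part by repressing Prdm1, which encodes BLIMP1.

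None of the 10 factors passed the threshold between the groups, set at 0.05 for the limma p on log2(FPKM + 1) after adjustment over all genes. Of all genes 1.74% passed it. Before adjustment 1 of the 10 factors, Pou2af1, had a limma p under 0.05, as did 19.2% of all genes. With only 10 factors, these counts do not set them apart from all genes. Pou2af1 was the only factor whose 4 knockdown values all lay below the 4 control values, at a mean of 126 against 205 FPKM. Spib had 179 against 292 FPKM with overlapping groups, and Ikzf1 was level at 143 against 137 FPKM. Much of the spread sat in knockdown replicate 4, which had the lowest level of all 8 libraries for Pax5, Ebf1, Pou2af1, Spib, Bach2, Ikzf3 and Foxo1. In that library Ikzf1 stood at the level of the others and Tcf3 was at its highest. Control replicate 4 had the highest level of all 8 libraries for 6 factors (Pax5, Ebf1, Pou2af1, Bach2, Ikzf3 and Foxo1). Its FPKM summed to 572660, the lowest of the 8.

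Some facts of the libraries touch these results. Kdm1a itself had 20.2, 21.04, 15.6 and 15.5 FPKM in knockdown replicates 1, 2, 5 and 4 and 24.2, 21.2, 24.1 and 31.1 FPKM in the controls. The groups lay side by side without overlap, and the adjusted p (limma) was 0.223. Steps between low FPKM values put the depth at about 37200000 to 43800000 fragments a library, and 1 fragment on 1 kilobase was worth 0.0229 to 0.0269 FPKM. Xist was at 94.9 FPKM or more in the 4 knockdown libraries and control replicate 1, while Ddx3y, on the Y chromosome, was at 11.6 FPKM or more in control replicates 2, 3 and 4 and listed at 0 elsewhere. Sex and group thus can hardly be told apart. The 9 B cell markers (among them Ms4a1, Cd79a, Cd79b, Cd22, Cd72, Cd37, Blk and Fcmr) were present in every library, with summed levels of 1564 to 4291 FPKM in the knockdown group and 4734 to 5420 FPKM in the controls. Knockdown replicate 4 gave the lowest of these sums, and its summed level of the 9 erythroid markers analysed was 24609 FPKM, against 700 to 1811 FPKM in the other knockdown libraries and 2313 to 6579 FPKM in the controls. The globin genes Hbb-bs and Hba-a1 held most of each sum. Of the 9 markers 5 had a positive and 4 a negative difference, where 63.7% of all genes had a positive one. Gata1 (58.2 against 6.14 FPKM) alone passed the threshold, as higher, where 1.63% of all genes did. Gata1, Klf1 and Epor were higher without overlap, where 11.2% of all genes were. Monocyte and macrophage markers (8 genes) summed to 165 to 218 FPKM in the knockdown libraries and 73.4 to 135 FPKM in the controls, and T cell markers (8 genes) to 107 to 244 FPKM and 65.7 to 228 FPKM. Megakaryocyte and platelet markers (6 genes) summed to 20.3 to 61.2 FPKM and 6.56 to 14.4 FPKM. Of 5 tested, 2 passed the threshold as higher (Pf4 and Itga2b), where 1.63% of all genes did, while Ppbp was lower (0.916 against 2.05 FPKM). Neutrophil markers (8 genes) summed to 25.0 to 205 FPKM and 67.2 to 452 FPKM. Of 7 tested, 3 passed the threshold as lower (Camp, Ngp and Ltf), where 0.109% of all genes did. Mpo (19.1 against 3.42 FPKM, without overlap) and Elane (11.8 against 2.58 FPKM) went the other way. NK cell markers (5 genes) summed to 90.8 to 160 FPKM and 24.4 to 160 FPKM. Of these lists only the neutrophil marker Ly6g was at 0 in any library. What part these cell types have in the results was not tested. In a bulk library, fewer B cells and less RNA per B cell cannot be told apart.

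Pou2af1 and Spib, the factors with the largest differences, are shown with the 250 bases before their RefSeq start sites (GRCm38.p6, 5′ to 3′ on the strand of the gene), to put sequence beside the values and to look for octamer letters, since Pou2af1 acts through octamer-binding factors. Capitals mark TGCAAAT, the core of the octamer. Pou2af1 lies at chr9:51213440-51213689 (plus strand) and Spib at chr7:44532072-44532321 (minus strand).
Pou2af1: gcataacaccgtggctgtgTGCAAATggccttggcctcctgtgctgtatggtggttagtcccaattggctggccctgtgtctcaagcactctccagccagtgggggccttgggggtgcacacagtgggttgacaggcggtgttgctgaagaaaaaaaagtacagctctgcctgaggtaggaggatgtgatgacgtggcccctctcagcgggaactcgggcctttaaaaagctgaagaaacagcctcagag
Spib: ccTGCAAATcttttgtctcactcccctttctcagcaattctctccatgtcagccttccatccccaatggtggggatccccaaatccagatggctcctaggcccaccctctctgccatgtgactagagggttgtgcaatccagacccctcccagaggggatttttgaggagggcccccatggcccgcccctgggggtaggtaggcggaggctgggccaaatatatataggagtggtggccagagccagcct

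The full octamer ATGCAAAT was searched first on both strands and had no match in the 12 promoter windows held for 9 of the 10 factors, where 1.6% of 32851 windows of this length have one. The core TGCAAAT, which every full octamer contains, was added after the sequences had been seen. It was found in 2 of the 12 windows, at base −231 of Pou2af1 and −248 of Spib counted from the start site, and 3.56% of all windows hold it. The E protein letters CAGGTG and the forkhead letters TGTTTAC were in none of the 12 windows, against 17.2% and 3.17% of all windows. The Ebf letters TCCCNNGGG were in the window of Foxo1 (5.6% of all windows), where matches on both strands overlap. The Ets letters GAGGAA were in windows of Ebf1 and Bcl6 (23.3% of all) and the Ikaros letters TGGGAA in a window of Ebf1 (21.6% of all). Such a match describes letters, not binding.

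Pou2af1 (ENSMUSG00000032053) spans chromosome 9, 51213708 to 51240080, on the plus strand of GRCm38, the build of all gene positions here. Knockdown replicates 1, 2, 5 and 4 had 170, 152, 119 and 63.7 FPKM. Control replicates 1 to 4 had 182, 183, 175 and 281 FPKM. The groups did not overlap, although knockdown replicate 1 and control replicate 3 lay close together, and the outer values came from the replicate 4 libraries. The means were 126 ± 46.8 FPKM in the knockdown group and 205 ± 50.9 FPKM in the controls (SD, n = 4), a ratio of 61.6%. On the log2 scale the difference was −0.76 (95% interval −1.46 to −0.05; adjusted p = 0.234, limma). Permuting the group labels in all 70 ways (exact test, two-sided) gave p = 0.0286, the minimum for this design. Of the 10 factors 1 had lower knockdown values without overlap, where 1.9% of all genes did, and 0 had higher ones, where 11.2% did. Without knockdown replicate 4 the log2 difference of Pou2af1 was −0.46, and −0.30 without both replicate 4 libraries. With sex as a covariate, which leaves the knockdown group against control replicate 1, it was −0.61.

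Among the partners of Pou2af1, Pou2f2 (OCT2), the octamer-binding factor of B cells, had 44.0, 38.2, 47.8 and 15.1 FPKM in knockdown replicates 1, 2, 5 and 4 and 46.8, 46.1, 39.6 and 85.3 FPKM in the controls. Like Pou2af1, it was lowest in knockdown replicate 4 and highest in control replicate 4. Its log2 difference was −0.63 (95% interval −1.46 to 0.21). The ratio of Pou2af1 to Pou2f2 within a library was 3.64 ± 0.78 in the knockdown group and 3.89 ± 0.46 in the controls (SD, n = 4), so it differed by less than the spread. Pou2f1 (OCT1), the widely expressed relative, had a log2 difference of −0.52 (95% interval −1.21 to 0.18).

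Spib (ENSMUSG00000008193, chromosome 7, 44525993 to 44532071, minus strand) was the most abundant of the 10 factors in the controls. It had 195, 237, 224 and 59.1 FPKM in knockdown replicates 1, 2, 5 and 4, and 293, 343, 218 and 312 FPKM in control replicates 1 to 4. The groups overlapped only through control replicate 3. The knockdown mean was 179 ± 81.6 FPKM and the control mean 292 ± 53.1 FPKM (SD, n = 4). The log2 difference of −0.87, the most negative of the 10, had a 95% interval of −1.80 to 0.07, an adjusted p of 0.289 (limma) and an exact permutation p of 0.0857. Without knockdown replicate 4 it was −0.40, less negative than that of Pou2af1. Spi1, which encodes PU.1, the related factor of both myeloid and B cells, had 50.9 ± 8.72 against 50.3 ± 9.98 FPKM and a log2 difference of 0.02 (95% interval −0.43 to 0.47). The ratio of Spib to Spi1 was 3.36 ± 1.26 in the knockdown libraries and 6.00 ± 1.66 in the controls, with control replicate 3 at 3.77 inside the knockdown range of 1.54 to 4.42. Of the 5 plasmacytoid dendritic cell markers, a cell type that also uses Spib, 0 passed the threshold, and they summed to 15.8 to 31.8 FPKM in the knockdown libraries and 15.7 to 38.2 FPKM in the controls.

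**Figure D1:**
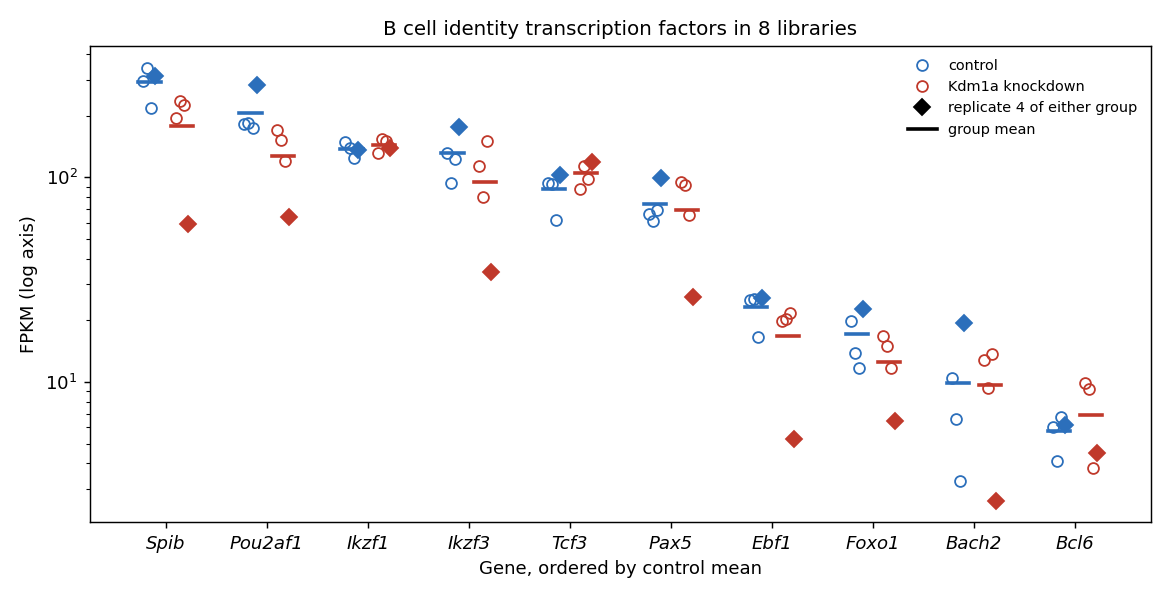
FPKM of the 10 factors on a log axis, ordered by control mean, with 1 point per library (blue: control, red: knockdown), filled diamonds for replicate 4 of either group and a bar at each group mean. The knockdown diamond is the lowest point for 7 factors, while for Ikzf1 all 8 points lie between 124 and 154 FPKM.

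Pax5 (ENSMUSG00000014030, chromosome 4, 44524757 to 44710487, minus strand) had 95.1, 91.4, 65.2 and 25.9 FPKM in knockdown replicates 1, 2, 5 and 4. Control replicates 1 to 4 had 66.2, 60.9, 68.8 and 98.7 FPKM. Knockdown replicates 1 and 2 were thus above control replicates 1, 2 and 3, and the group means of 69.4 ± 31.9 and 73.7 ± 17.0 FPKM (SD, n = 4) lay close together. Its log2 difference was −0.22 (95% interval −1.08 to 0.64; adjusted p = 0.774, limma). Without knockdown replicate 4 the sign turned, to 0.19, with a knockdown mean of 83.9 ± 16.3 FPKM (SD, n = 3).

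Ebf1 (ENSMUSG00000057098, chromosome 11, 44617317 to 45008091, plus strand) had a lower level than Pax5 in each library. Its values were 19.9, 20.2, 21.7 and 5.25 FPKM in knockdown replicates 1, 2, 5 and 4 and 25.1, 25.5, 16.6 and 25.6 FPKM in the controls. In each group 3 libraries lay close together and 1 far below, knockdown replicate 4 and control replicate 3. The log2 difference of −0.59 had a 95% interval of −1.48 to 0.30 and an adjusted p (limma) of 0.426, and it was −0.14 without knockdown replicate 4. The ratio of Pax5 to Ebf1 was 4.31 ± 0.89 against 3.26 ± 0.88 (SD, n = 4), a difference near the spread of either group.

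Tcf3 (ENSMUSG00000020167, chromosome 10, 80409514 to 80433647, minus strand) had 88.0, 113, 97.9 and 119 FPKM in knockdown replicates 1, 2, 5 and 4. Control values were 94.2, 92.9, 61.6 and 103 FPKM, so the groups overlapped. Its log2 difference was 0.26 (95% interval −0.19 to 0.72; adjusted p = 0.492, limma), and 0.10 without control replicate 3. Tcf4, which encodes the E protein E2-2, had 40.9 ± 20.3 against 59.1 ± 12.4 FPKM and a log2 difference of −0.65 (95% interval −1.46 to 0.16). The ratio of Tcf3 to Tcf4 was 7.15 in knockdown replicate 4 and 1.27 to 2.98 in the other 7 libraries. Tcf12 had 27.4 against 24.7 FPKM. Id3 and Id2, which encode inhibitors that bind E proteins, had log2 differences of −0.00 and 0.38, with 95% intervals of −0.81 to 0.81 and −0.46 to 1.23.

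Foxo1 (ENSMUSG00000044167, chromosome 3, 52268336 to 52353221, plus strand), the forkhead factor that PI3K signalling restrains, had 16.8, 15.1, 11.7 and 6.45 FPKM in knockdown replicates 1, 2, 5 and 4. Control replicates 1 to 4 had 19.9, 13.8, 11.7 and 22.8 FPKM. Apart from knockdown replicate 4 the values of the groups interleaved. The log2 difference was −0.45 (95% interval −1.14 to 0.25; adjusted p = 0.439, limma). It was −0.19 without knockdown replicate 4 and −0.04 without both replicate 4 libraries. Foxo3, a relative, had 14.4 against 13.3 FPKM, and the ratio of Foxo1 to Foxo3 was 0.29 in knockdown replicate 4 and 1.02 to 1.76 elsewhere.

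Of the Ikaros family, Ikzf1 (ENSMUSG00000018654, chromosome 11, 11685003 to 11772926, plus strand) had 131, 154, 150 and 138 FPKM in knockdown replicates 1, 2, 5 and 4 and 148, 139, 124 and 136 FPKM in the controls. On the log2 scale this was the narrowest spread of the 10 factors, with a difference of 0.07 (95% interval −0.28 to 0.41; adjusted p = 0.832, limma). Ikzf3 (ENSMUSG00000018168, chromosome 11, 98464902 to 98546031, minus strand) had 113, 79.7, 150 and 34.3 FPKM in knockdown replicates 1, 2, 5 and 4 and 132, 93.5, 122 and 176 FPKM in the controls. Its log2 difference was −0.62 (95% interval −1.55 to 0.31; adjusted p = 0.423, limma), and −0.20 without knockdown replicate 4. The ratio of Ikzf3 to Ikzf1 was 0.25 in knockdown replicate 4, against 0.52 to 1.29 in the other 7 libraries. Ikzf2 (Helios), a relative found in T cells, had 2.36 ± 1.06 against 1.13 ± 0.69 FPKM (SD, n = 4), a log2 difference of 0.65 (95% interval −0.01 to 1.31). Ikzf5 (Pegasus) ranged from 8.57 to 13.1 FPKM with the knockdown and from 5.92 to 8.22 FPKM in the controls. It was higher without overlap, where 11.2% of all genes were, and had an adjusted p (limma) of 0.235. The span of Ikzf5 overlaps other annotated genes.

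Bach2 (ENSMUSG00000040270, chromosome 4, 32238804 to 32586108, plus strand) stood at 12.8, 9.35, 13.8 and 2.64 FPKM in the knockdown libraries, in the same order. The controls ran wider, with 10.4, 6.61, 3.30 and 19.4 FPKM. The log2 difference was 0.00, but its 95% interval of −1.22 to 1.23 was the widest of the 10 factors. Bach2 overlaps an antisense gene and 2 further annotated genes. Pax5 overlaps 4, Foxo1 and Ikzf1 2 each, and Ebf1, Pou2af1, Ikzf3 and Bcl6 1 each, while Spib and Tcf3 overlap none. The use of strand is not given, so these 8 levels may hold fragments of other genes. Overlap was counted over whole gene spans, and whether exons overlap was not examined. Bach1, the widely expressed relative, had 6.23 to 7.11 FPKM against 4.63 to 5.37 FPKM, higher without overlap, where 11.2% of all genes were. Its log2 difference was 0.37 (95% interval 0.03 to 0.71; adjusted p = 0.225, limma).

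Bcl6 (ENSMUSG00000022508, chromosome 16, 23965052 to 23988852, minus strand), the repressor of germinal centre B cells, was the lowest of the 10 in the controls. It had 9.93, 9.27, 3.79 and 4.48 FPKM in knockdown replicates 1, 2, 5 and 4 and 6.00, 4.14, 6.74 and 6.15 FPKM in the controls. The knockdown libraries formed a high pair above all controls and a low pair near the lowest control. The log2 difference was 0.14 (95% interval −0.53 to 0.81; adjusted p = 0.815, limma).

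**Figure D2:**
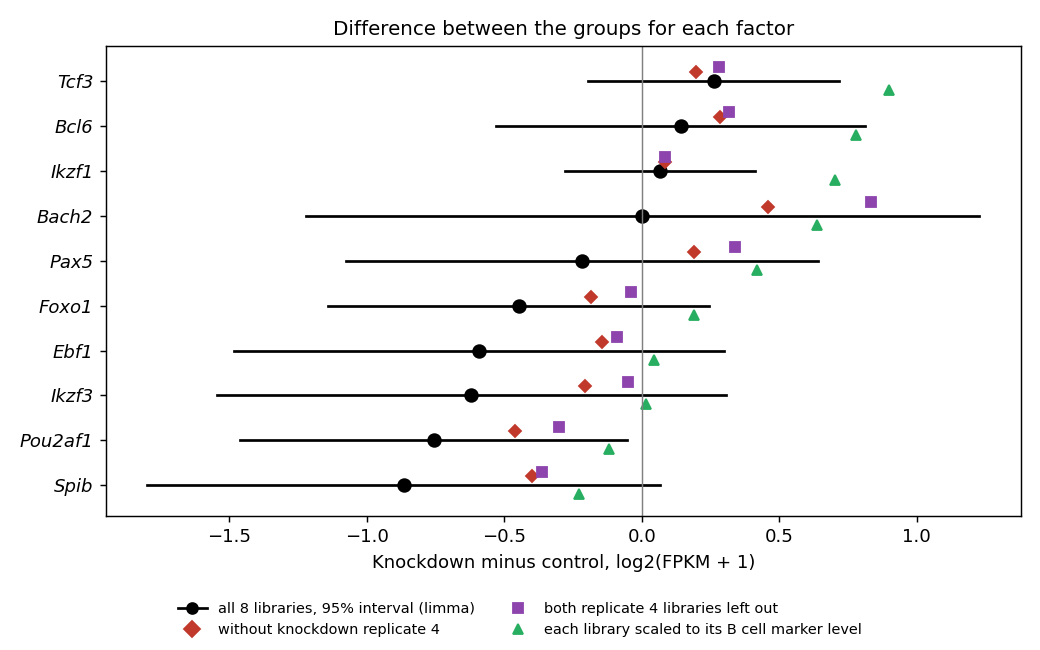
Knockdown minus control difference in log2(FPKM + 1) for each factor: black points and lines are the estimate and its 95% interval from limma with all 8 libraries, red diamonds leave out knockdown replicate 4, purple squares leave out both replicate 4 libraries, and green triangles scale each library to its B cell marker level. Of the 10 intervals only that of Pou2af1 excludes 0, and the 3 other settings lie to the right of the black point for every factor except Tcf3, where the value without knockdown replicate 4 is 0.20.

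Across the 10 factors 4 differences were positive and 6 negative, with a median of −0.33, while the median over all 12890 genes was 0.13. A positive difference was found for 63.7% of all genes. Median-of-ratios scaling moved the median of all genes to −0.01 and quantile normalization to −0.03, and under both Bach2, Bcl6 and Ikzf1 turned negative. Of all genes 1.63% passed the threshold as higher and 0.109% as lower, and 0 factors did either. Unadjusted exact permutation p-values over log2 levels lay between 0.229 and 1 for the 8 factors other than Pou2af1 and Spib.

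By length-scaled level the factors kept much the same order within the controls. Spib exceeded Pou2af1 in 4 of 4 controls with overlapping ranges, and Pou2af1 exceeded Ikzf1 in 4 of 4 with ranges apart. Ikzf1 and Ikzf3 (137 and 131 FPKM) did not differ beyond their spread, nor did Tcf3 and Pax5 (87.9 and 73.7 FPKM). Pax5 exceeded Ebf1 with ranges apart (73.7 and 23.2 FPKM), and Ebf1, Foxo1, Bach2 and Bcl6 (23.2, 17.1, 9.93 and 5.76 FPKM) followed with ranges that overlapped from each to the next.

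The B cell markers were lowest in the same library as most factors. Their mean log2(FPKM + 1) was 8.65, 8.60, 8.45 and 7.07 in knockdown replicates 1, 2, 5 and 4 and 8.80, 8.86, 8.71 and 8.95 in the controls. Every knockdown library was below every control, by little except in replicate 4 (difference −0.64, exact permutation p = 0.0286, the smallest possible). Without knockdown replicate 4 the difference was −0.26 (exact permutation p = 0.0571) and without both replicate 4 libraries −0.22. Leaving out knockdown replicate 1, 2 or 5 kept the exact permutation p at 0.0286. Leaving out control replicate 1, 2, 3 or 4 gave exact permutation p-values of 0.114, 0.114, 0.0857 and 0.171. The groups still did not overlap in these cases. With unequal groups, assignments that put knockdown replicate 4 in the smaller group can give a larger mean difference than the real one. All 9 markers had a negative log2 difference and 0 passed the threshold, with Fcmr alone at an unadjusted limma p under 0.05. Several of these markers are themselves targets of Pax5 or Ebf1, so they are no independent measure of B cell number.

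**Figure D3:**
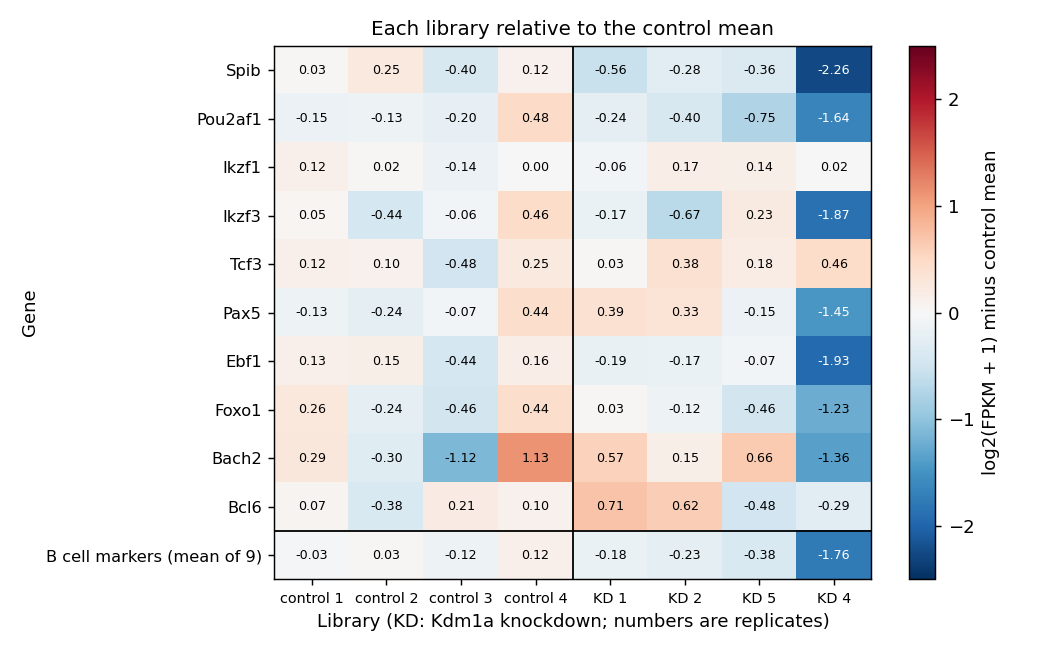
Each library's log2(FPKM + 1) minus the control mean of that gene, for the 10 factors and the mean of the 9 B cell markers (columns: controls, then knockdown libraries marked KD, with replicate numbers). In KD 4 the marker mean is −1.76 and 7 factors lie between −1.23 and −2.26, while Ikzf1 is at 0.02, Tcf3 at 0.46 and Bcl6 at −0.29.

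Set against the marker level of the same library, the difference was smaller in size for 5 factors and larger for 5, on a scale where the median difference of all genes was 0.77. The log2 level of Pou2af1 minus the marker level was −1.29 ± 0.20 in the knockdown group and −1.17 ± 0.24 in the controls (SD, n = 4), that of Ebf1 −4.21 ± 0.20 and −4.25 ± 0.22, and that of Ikzf3 −1.81 ± 0.44 and −1.82 ± 0.34. Spib had −0.89 ± 0.25 against −0.66 ± 0.21 and Foxo1 −4.51 ± 0.26 against −4.70 ± 0.35. Pax5 had −2.21 ± 0.17 against −2.63 ± 0.25, with overlap between knockdown replicates 4 and 5 and control replicate 4. Tcf3 had −2.18 to −0.16 in the knockdown libraries and −2.74 to −2.22 in the controls, the only factor without overlap on this scale, where 32.6% of all genes were higher without overlap and 0.132% lower. Its difference there, 0.90, was close to that median and not past the threshold. Ikzf1 had −1.02 ± 0.74 against −1.73 ± 0.11, where knockdown replicate 4 alone was above 0.

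How the factors varied within the groups was described by the Pearson correlation of their deviations from the group means over the 8 libraries, each point being 1 library with its own depth and cell mixture. All 45 pairs of the 10 factors had r between −0.29 and 0.99, with a median of 0.64, and a median of 0.36 without knockdown replicate 4. The 21 pairs among the 7 factors lowest in knockdown replicate 4 had r between 0.73 and 0.99, which follows in part from choosing them by that library. Without that library the same pairs had r between −0.16 and 0.95, with a median of 0.46. The closest pairs then were Pax5 with Pou2af1 (0.95), Tcf3 with Spib (0.91), and Ebf1 with Spib and with Tcf3 (both 0.89), over 7 libraries. Pax5 and Ebf1, at 0.86 over 8 libraries, were at 0.03 over 7. Tcf3 with Spib and Tcf3 with Ebf1 were both at −0.06 over 8 libraries, so these values turn on single libraries.

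**Figure D4:**
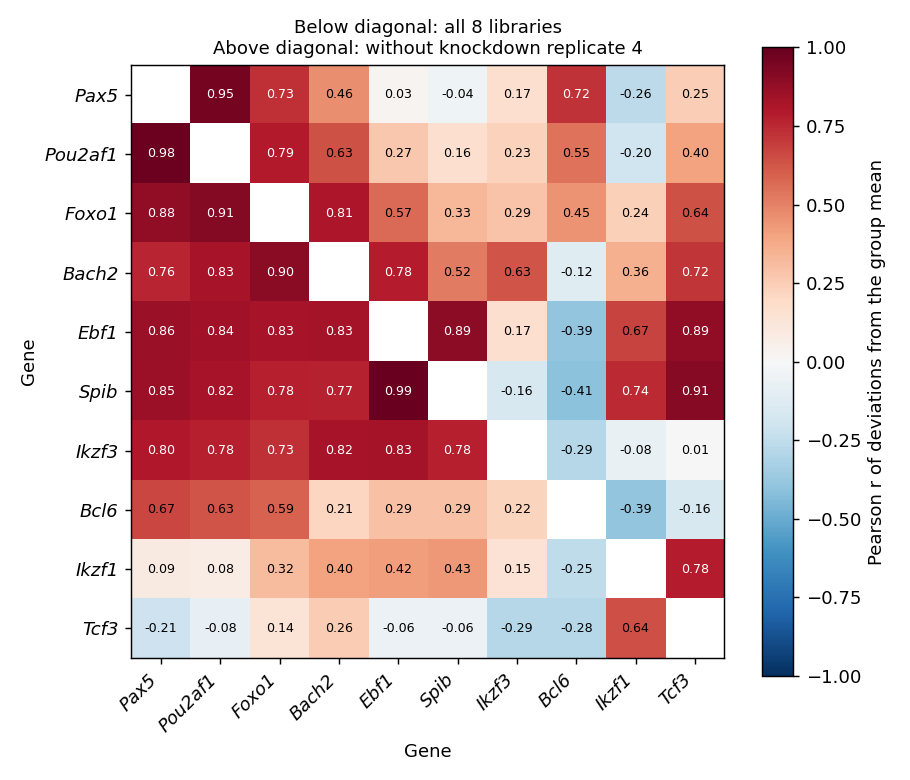
Pearson r between factors of their deviations from the group mean in log2(FPKM + 1), over all 8 libraries below the diagonal and without knockdown replicate 4 above it. Among the first 7 genes the cells below the diagonal are all at least 0.73, while above it they run from −0.16 to 0.95.

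The genes most like Pax5 by Pearson r of log2(FPKM + 1) over the 8 libraries were Tbc1d1 (0.99), Map3k14 (0.98) and Gm49668 (0.98). Those most like Ebf1 were Card6, Elf4 and Ago1 (all 0.99). These are the highest values over all genes tested, and Ebf1 and Pax5 had 0.84 with each other.

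Known targets and relatives of the factors were counted in the same fit, to be read against the same 19.2% of all genes with an unadjusted limma p under 0.05. Genes without overlap are to be read against 11.2% of all genes as higher and 1.9% as lower. Counts of positive differences are to be read against 63.7% of all genes. Of 23 genes activated by Pax5 or Ebf1, 20 were tested, 14 had a negative and 6 a positive difference, and 0 passed (median −0.35), with 2 at an unadjusted p under 0.05 (Fcer2a and Bst1). The smallest p belonged to Fcer2a, which encodes the low-affinity IgE receptor CD23 of mature B cells, with 35.7, 42.3, 8.61 and 13.8 FPKM in knockdown replicates 1, 2, 5 and 4. Controls had 5.24 to 7.17 FPKM, all below the knockdown values, and the log2 difference was 1.65 (95% interval 0.67 to 2.64; adjusted p = 0.101, limma). Cd79a, the signalling chain of the B cell receptor, had 716 against 1094 FPKM and Fcrla 195 against 302 FPKM, both in the other direction with overlap. Bst1 had 1.60 against 0.752 FPKM, without overlap.

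Of 9 tested genes that Pax5 represses 5 had a positive and 4 a negative difference, and 0 passed, with 5 at an unadjusted p under 0.05 (Ccl3, Ccr2, Prdm1, Xbp1 and Csf1r). Csf1r, which is also among the monocyte markers, had 34.8 against 19.4 FPKM. Ccl3, which encodes a chemokine, had 11.8 ± 3.39 against 4.73 ± 2.30 FPKM (SD, n = 4; log2 difference 1.25, adjusted p = 0.130, limma), and Ccr2, a chemokine receptor gene also of monocytes, 21.5 against 6.58 FPKM. Prdm1 and Xbp1 had negative differences. Among 15 genes that Bcl6 represses 9 were positive, 6 negative and 0 passed, with Ccl3 and Prdm1 at an unadjusted p under 0.05. Of the others, Cd80 had 13.2 against 22.0 FPKM and Bcl2 16.6 against 25.8 FPKM, both with overlapping groups. Among 11 tested Foxo1 targets 5 were positive, 6 negative and 0 passed, with 2 at an unadjusted p under 0.05, Gadd45a among them. Gadd45a, a gene of growth arrest and stress, had 17.7 against 5.31 FPKM without overlap. Without knockdown replicate 4, which had 40.5 FPKM, the knockdown mean of Gadd45a was 10.2 FPKM. Blnk, the adaptor of the B cell receptor, had 89.7 against 134 FPKM with overlap.

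Family relatives, partners and inhibitors of the factors numbered 21, of which 13 were tested and 8 were too low. Of the 13, 9 had a positive difference, 0 passed, and the median was 0.17, with Spic, Bach1 and Ikzf5 at an unadjusted p under 0.05. Spic, a relative of Spib known from red pulp macrophages, had 7.23, 14.2, 17.7 and 27.5 FPKM in knockdown replicates 1, 2, 5 and 4 and 3.84 to 10.5 FPKM in the controls (log2 difference 1.03, adjusted p = 0.199, limma). Of 14 other transcription factors of B cells tested, 6 were positive, 8 negative and 0 passed, with Irf4 alone at an unadjusted p under 0.05. Mef2b had 1.98 against 5.71 FPKM, Runx1 12.1 against 8.98 FPKM and Klf2 166 against 244 FPKM, each with overlapping groups. Klf2 was lowest in knockdown replicate 4 (83.7 FPKM) and highest in control replicate 4 (409 FPKM). Without knockdown replicate 4 its knockdown mean was 194 FPKM.

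On the plasma cell side all 9 genes had a negative difference, and 0 passed. Of them 4 were lower without overlap (Prdm1, Xbp1, Mzb1 and Derl3), where 1.9% of all genes were. These 4 and Irf4 had an unadjusted p under 0.05. Derl3, a factor of protein disposal in the endoplasmic reticulum, had 18.5 against 58.2 FPKM, Mzb1, a cochaperone of antibody secretion, 347 against 644 FPKM, and Xbp1 67.1 against 112 FPKM. Prdm1 had 6.40, 5.01, 7.02 and 2.71 FPKM in knockdown replicates 1, 2, 5 and 4 and 12.1, 8.66, 11.3 and 35.5 FPKM in the controls, a log2 difference of −1.36 (95% interval −2.29 to −0.43; adjusted p = 0.140, limma). The knockdown values were all below the controls. Irf4, a factor of activated B cells and plasma cells, had 13.6 to 38.4 FPKM against 29.4 to 99.98 FPKM (log2 difference −0.93, adjusted p = 0.251, limma). Within libraries, the ratio of Bach2 to Prdm1 was 2.01, 1.87, 1.96 and 0.97 in knockdown replicates 1, 2, 5 and 4 and 0.86, 0.76, 0.29 and 0.55 in the controls. The ratio of Pax5 to Prdm1, a pair added after the values were seen, was 9.29 to 18.2 against 2.78 to 7.04. Both ratios were higher in every knockdown library, knockdown replicate 4 included, while that of Bcl6 to Prdm1 (1.398 ± 0.586 against 0.44 ± 0.18, SD, n = 4) overlapped through knockdown replicate 5 at 0.54. Prdm1 by itself also separated the groups, while Bach2 and Pax5 by themselves overlapped. How many of all genes separate the groups when divided by Prdm1 was not computed. Whether the separation of these ratios is particular to the factors was therefore not tested. These ratios are given as values, without a test.

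**Figure D5:**
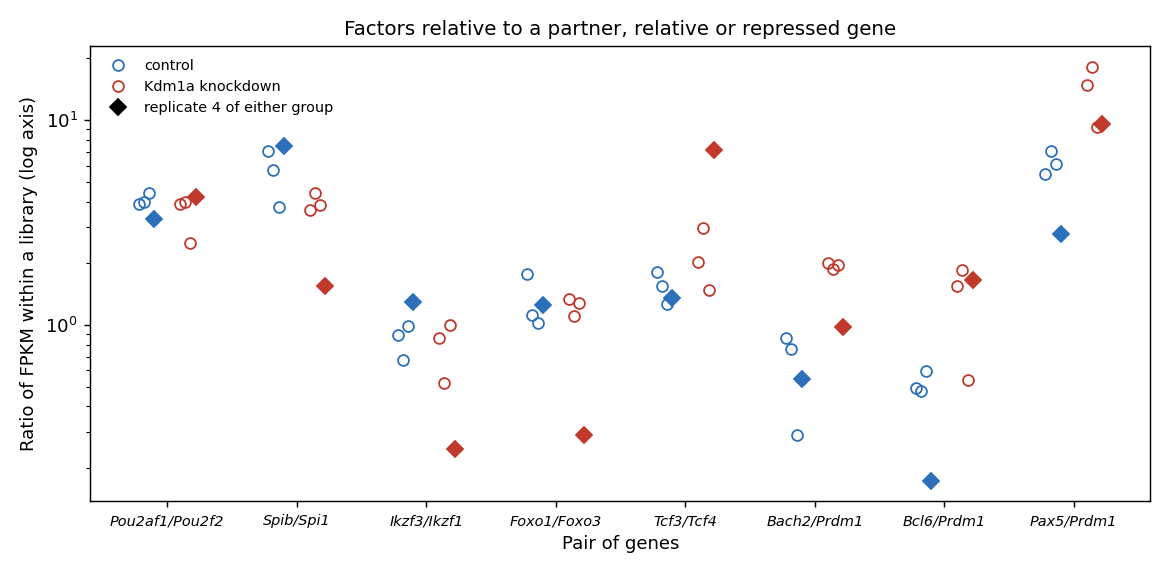
Ratios of FPKM within a library on a log axis for 8 pairs, 1 point per library (blue: control, red: knockdown, diamonds: replicate 4). Bach2/Prdm1 and Pax5/Prdm1 separate the groups without overlap, as Prdm1 alone does. Spib/Spi1 overlaps through control replicate 3, and Pou2af1/Pou2f2 lies between 2.498 and 4.41 in all 8 libraries.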

How the data were processed

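FPKM of splenic RNA, as the authors deposited them, were taken from 1 table of 54018 identifiers and 8 columns. CASAVA and Cufflinks are named, with no version, per the submitters' processing notes. The sources used here do not give the aligner, build, annotation or strand setting. FPKM moves with a library's most abundant transcripts. GENCODE M21 (GRCm38) named 53951 identifiers, and 151 of 153 list genes were found. Knockdown (n = 4) and control (n = 4) were compared on log2(FPKM + 1), a scale that understates the change of low genes. The fit used limma 3.58.1 (R 4.3.3) with its trend option and no covariate. Genes entered with 1 FPKM or more in 4 or more libraries, which left 12890, and p-values were adjusted over them (Benjamini-Hochberg, threshold 0.05). The fit was tested on simulated data. Depth came from steps between low values of transcripts of 1500 bases or more, of which 78.2% to 89.9% lay within 5% of a whole multiple. Marker levels are means of log2(FPKM + 1).

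Named are all 10 factors, fixed partners, Kdm1a, the 4 genes of smallest p in each list of relatives, factors, targets and plasma cell genes, and the 3 genes most like Pax5 and Ebf1. Some genes of these lists enter the counts and levels but are not reported here by name. The factors and lists were chosen with earlier results of these data known. RefSeq promoters (GRCm38.p6) were matched by symbol for 9 of 10 factors. Tables and plots were made in Python 3.11.15 using numpy 2.4.6, pandas 2.3.3 and matplotlib 3.10.9. Alternatives changed scaling, pseudocount, filter, test, covariates, a block by replicate number, and the libraries used.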

Additional observations from a re-analysis of the deposited data

Results flagged for a closer look

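In 22 groups of 4 values (the 10 factors and the B cell marker level in each group), 4 held a library far from the other 3, where chance gives about 1 in 20. Ebf1 had 5.25 FPKM in knockdown replicate 4 and 16.6 FPKM in control replicate 3, each well below its group. Pou2af1 had 281 FPKM in control replicate 4, above the other controls. The B cell marker level was 7.07 on the log2 scale in knockdown replicate 4, where the summed erythroid markers were highest. What sets these libraries apart was not tested.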

How the results depend on the processing

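Of the 10 factors, 0 passed the limma threshold under each of the 20 alternatives that gave a test, with a smallest adjusted p of 0.157 for Pou2af1 without knockdown replicate 1. Of 200 tested alternative values of their log2 differences, 173 kept direction and side of the threshold and 27 changed sign. Of 10 values with sex as a covariate, which were not tested, 8 kept direction and 2 changed sign. Under median-of-ratios scaling Bach2 was −0.15, Bcl6 −0.0031 and Ikzf1 −0.10, and 2 factors had groups without overlap. Under quantile normalization Bach2 was −0.17, Bcl6 −0.049 and Ikzf1 −0.080, 0 factors had groups without overlap, and the B cell marker difference of −0.69 had an exact permutation p of 0.114. Scaling to the B cell marker level gave Pax5 0.42, Ebf1 0.045, Foxo1 0.19 and Ikzf3 0.016, and that level as a covariate gave 0.50, 0.16, 0.035 and 0.056. Bach2 was −0.0034 with a pseudocount of 0.1 and −0.29 with sex as a covariate, where Ikzf1 was −0.052. Pax5 was 0.30 with array weights and 0.34 without both replicate 4 libraries, where the marker difference was −0.22 (exact permutation p = 0.1, the smallest possible). Leaving out each library in turn gave Pax5 −0.42 to 0.19, positive only without knockdown replicate 4, Bach2 −0.37 to 0.46 and Bcl6 −0.048 to 0.35. It gave 1 to 3 factors without overlap, 3 only without control replicate 3, and a marker difference of −0.79 to −0.26. The share of all genes without overlap was not computed with a library left out, nor under median-of-ratios scaling or quantile normalization. The cause of these changes was not tested.

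Over all genes 224 passed. The count was 126 with quantile normalization, 24 with a pseudocount of 5, 2 with no filter, 71 at a mean of 5 FPKM or more, 761 with array weights, 50 with the marker level as a covariate and 120 without both replicate 4 libraries. It was 8 to 333 with 1 library left out, and fell by more than 1.5 times without knockdown replicate 2 (13) or control replicate 1 (90), 2 (46), 3 (29) or 4 (8). With the replicate block 0 genes passed, Bach2 was −0.59 and Ikzf1 −0.0043, over the numbers 1, 2 and 4 that both groups share. Same-numbered libraries had correlations of their deviations of 0.16, 0.05 and −0.12, against −0.15 to 0.15 for libraries of different numbers. These few values show no pairing by number and cannot exclude one. Depth does not limit factors at these levels, while 4 libraries a group left intervals of the log2 difference as wide as −1.22 to 1.23 (Bach2).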
